A study of Mus musculus with 14 samples.

Results

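Transcripts of 29 genes for the synthesis of cholesterol and fatty acids were followed across 7 groups of mouse embryonic stem cells. The genes were chosen by symbol: 7 of the mevalonate steps, 3 from squalene to lanosterol, 8 from lanosterol to cholesterol, 5 that control the SREBP transcription factors, the sterol carrier Stard4, and 5 of fatty acid synthesis. Of the 29 genes, 28 were among the 37991 genes counted in both deposited tables, and all 28 passed the filter on low counts in both experiments. Hmgcs1, which makes the substrate of the first committed step, was not analysed here.

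Poly(A) RNA was sequenced from the J1 line (129S4/SvJae), with 2 libraries in each group. Experiment 1 held Dnmt-TKO cells, which lack the DNA methyltransferases Dnmt1, Dnmt3a and Dnmt3b (TKO below), and wild-type cells, each given PRT4165, which inhibits PRC1 of the polycomb group, or its vehicle DMSO. Experiment 2 held untreated cells of 3 genotypes: TKO cells that also lacked Tet1, an enzyme that oxidises methylated cytosine (Tet1-KO TKO), TKO cells and wild-type cells. The Tet1-KO cells and their TKO controls thus both lack the methyltransferases. Not given in the sources used here were the inhibitor's dose and duration and the number of clones behind a genotype. A genotype therefore cannot be told apart from the line that carries it.

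Cells make cholesterol from acetyl-CoA through mevalonate, isoprenoid units, squalene and lanosterol, and build fatty acids from the same precursor. SREBP proteins, the products of Srebf1 and Srebf2, switch on the genes of both routes after Scap escorts them out of the endoplasmic reticulum, and Insig proteins hold Scap back when sterols are plentiful. Because so many enzymes answer to the same factors, transcripts of the route often move as a block when cellular sterol changes.

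The depth of a library was 25588815 to 37399837 counts in experiment 1. In experiment 2 it was 23354015 to 41844823. Levels are CPM, counts scaled to library size with TMM factors. A value after log2 in brackets is a log2 fold change. A gene was called, and is said to have risen or fallen, at an adjusted p under 0.05 by edgeR's quasi-likelihood test with Benjamini-Hochberg adjustment over all genes of its table. Transcripts of the targeted genes were lower but present where their loss is labelled: Dnmt1 had 128 and 128 CPM in TKO and 424 and 434 CPM in wild-type vehicle cells, and Tet1 had 134 and 201 CPM in Tet1-KO TKO and 791 and 742 CPM in untreated TKO cells. Whether those counts lie outside the deleted parts is not known here. All 8 pluripotency markers were above 1 CPM in every group. In TKO against wild-type vehicle cells 7 of them fell and 1 rose (median log2 fold change -0.44), beside 34.2% and 34.8% of all genes. In untreated TKO cells 6 fell and 1 rose (-0.41), beside 24.3% and 25.9% of all genes. All 8 fell in inhibitor-treated TKO against wild-type vehicle cells (-0.82), beside 36.7% of all genes. The 8 fibroblast markers summed to between 5.37 and 17.3 CPM, with 3 to 5 of them under 1 CPM in each group. Summed over 8 trophoblast markers, the libraries held 865 to 899 CPM in TKO and 83.9 to 94.2 CPM in wild-type vehicle cells, and 595 to 747 CPM in Tet1-KO TKO, 199 to 201 CPM in TKO and 73.8 to 78.2 CPM in wild-type untreated cells. Summed over 8 endoderm markers they held 94.9 to 95.8 CPM in TKO and 146 to 169 CPM in wild-type vehicle cells, and 86.8 to 184 CPM in Tet1-KO TKO, 43.2 to 72.5 CPM in TKO and 108 to 188 CPM in wild-type untreated cells. These marker levels moved with the genotypes, and those of trophoblast and pluripotency also with the inhibitor. In TKO cells the endoderm sum was lower with the inhibitor (84.5 to 86.3 CPM) than in vehicle. In wild-type cells the endoderm sums with inhibitor (162 to 172 CPM) and in vehicle overlapped. The part of the markers in the results was not tested. In such bulk RNA, fewer cells of a type and less RNA per cell cannot be told apart.

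Per kilobase of exon, the fatty acid genes Acly, Fasn and Scd2 stood near the top of the list and the sterol reductase Tm7sf2 at the bottom. Acaca, also of fatty acid synthesis, ranked 16 of 28 in TKO and 19 of 28 in wild-type vehicle cells. In TKO vehicle cells Acly, which makes cytosolic acetyl-CoA from citrate, averaged 89.7 CPM per kb, Fasn, the fatty acid synthase, 51.4 and Scd2, a desaturase, 32.7. In wild-type vehicle cells Acly averaged 85.1 CPM per kb, Fasn 56.6 and Pmvk, the phosphomevalonate kinase, 51.7, and neither the libraries of Acly and Fasn nor those of Fasn and Pmvk overlapped. Pmvk changed its place between genotypes: it ranked 11 of 28 at 13.2 CPM per kb in TKO and 3 of 28 in wild-type vehicle cells, and in untreated cells it ranked 14 in Tet1-KO TKO, 11 in TKO and 3 in wild type. Tm7sf2 ranked 28 in all 7 groups, at 1.33 CPM per kb in TKO and 1.71 in wild-type vehicle cells. Exon lengths come from an annotation of a later build than the one used for counting. Each joins the exons of all annotated transcripts of a gene (4403 bases for Tm7sf2), so the ranks also depend on the annotation.

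The first comparison set TKO cells against wild-type cells, both in vehicle. Of the 28 genes 6 rose and 13 fell in TKO cells and 9 were not called. The share that fell, 46.4%, stood above the 34.2% of all 16711 genes that fell, and the share that rose, 21.4%, below the 34.8% of all genes that rose. The median log2 fold change was -0.12 for the 28 genes and 0.01 for all genes. Of the 17 measured sterol steps 2 rose and 9 fell. With libraries scaled by their totals alone, 7 of the 28 fell, a share close to that of all genes, of which 4173 of 16711 fell. The median of the 28 turned to 0.03, and the median over all genes was 0.16 higher in TKO. The share of all calls that rose was 63.5%, against 50.5% after TMM scaling.

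Among the 6 measured mevalonate genes 4 fell, 1 rose and 1 was not called in TKO vehicle cells. Of all genes 34.2% fell and 34.8% rose. Pmvk, whose kinase adds the second phosphate to mevalonate, had 22.8 and 22.3 CPM in TKO and 94.1 and 83.1 CPM in wild-type cells. The 2 genotypes were thus far apart, and Pmvk fell to a level 3.92-fold below wild type (log2 fold change -1.97, SE 0.07, adjusted p = 1.76e-17). Mvk, the kinase before it, had 17.1 and 17.04 CPM in TKO and 21.8 and 23.4 CPM in wild-type cells (log2 fold change -0.41, SE 0.08, adjusted p = 6.03e-05). Acat2, the thiolase that joins acetyl-CoA units, had 68.2 and 68.6 CPM in TKO and 78.2 and 75.9 CPM in wild-type cells (log2 fold change -0.17, SE 0.05, adjusted p = 0.00531), a call lost when libraries are scaled by their totals. Acat2 shares 65.6% of its longest transcript at 95% identity or more with Acat3, so reads of the pair are hard to separate. Mvd, the decarboxylase, had 27.5 and 24.7 CPM in TKO and 27.3 and 32.2 CPM in wild-type cells, and these libraries overlapped (log2 fold change -0.19, SE 0.08, adjusted p = 0.0272). It lies on chromosome 8, whose genes had a median 0.34 above the other autosomes. Its call was lost without wild-type vehicle replicate 2 (log2 -0.09, adjusted p = 0.354) and without TKO vehicle replicate 2 (log2 -0.11, adjusted p = 0.315). It was also lost by DESeq2 (adjusted p = 0.125), with the compared groups alone (adjusted p = 0.0714) and with libraries scaled by their totals (log2 -0.04, adjusted p = 0.643). Fdps, which makes farnesyl diphosphate and overlaps Gm43738 over 26.7% of its exons, rose slightly (log2 fold change 0.17, SE 0.05, adjusted p = 0.00424). This call did not hold without wild-type vehicle replicate 2 (log2 0.09, adjusted p = 0.134) and without TKO vehicle replicate 2 (log2 0.14, adjusted p = 0.0637). Idi1, the isomerase of isoprenoid units, was not called (log2 fold change -0.13, adjusted p = 0.143), but was called without wild-type vehicle replicate 2 (log2 -0.25, adjusted p = 0.0139).

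None of the 3 genes from squalene to lanosterol was called in TKO vehicle cells by edgeR or by DESeq2, and none had an unadjusted p under 0.05. By edgeR 34.8% of all genes rose and 34.2% fell there. Fdft1, the squalene synthase, had 60.8 and 63.2 CPM in TKO and 58.9 and 68.7 CPM in wild-type cells, Sqle, the squalene epoxidase, 64.1 and 66.2 against 66.5 and 72.9 CPM, and Lss, the lanosterol synthase, 34.7 and 34.5 against 36.8 and 38.3 CPM. Their log2 fold changes lay between -0.12 and -0.04. Without wild-type vehicle replicate 1 all 3 were called lower: Fdft1 (log2 -0.17, adjusted p = 0.0138), Sqle (log2 -0.18, adjusted p = 0.00444) and Lss (log2 -0.17, adjusted p = 0.0346). Sqle was also called without wild-type inhibitor replicate 1 (log2 -0.12, adjusted p = 0.0494), and Lss without wild-type inhibitor replicate 1 (log2 -0.14, adjusted p = 0.0373) or 2 (log2 -0.14, adjusted p = 0.0375).

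Of the 8 genes from lanosterol to cholesterol 5 fell and 1 rose in TKO vehicle cells (62.5% and 12.5%, against 34.2% and 34.8% of all genes). Hsd17b7, a reductase of the sterol ring, had 14.3 and 14.4 CPM in TKO and 25.3 and 27.2 CPM in wild-type cells (log2 fold change -0.87, SE 0.08, adjusted p = 6.23e-10). It lies on chromosome 1, whose genes had a median log2 fold change 0.42 below that of the other autosomes (difference -0.42), and Hsd17b7 fell further than that. Ebp, the sterol isomerase, had 16.3 and 17.1 CPM in TKO and 26.1 and 26.2 CPM in wild-type cells (log2 fold change -0.65, SE 0.07, adjusted p = 2.59e-08). Ebp is X-linked, and its fall ran against its chromosome, whose genes had a median 0.36 above the autosomes. Sc5d, the desaturase that acts next, had 10.5 and 11.7 CPM in TKO and 16.4 and 15.5 CPM in wild-type cells (log2 fold change -0.52, SE 0.09, adjusted p = 2.53e-05). Dhcr7, the reductase that completes cholesterol, went the other way, with 33.5 and 32.2 CPM in TKO and 22.6 and 22.2 CPM in wild-type cells (log2 fold change 0.55, SE 0.07, adjusted p = 7.07e-08), and no library of one genotype overlapped the other. Cyp51, the lanosterol demethylase, fell by 0.21 log2 units (SE 0.06) and Tm7sf2 fell by 0.37 log2 units (SE 0.12). The Cyp51 call was lost without wild-type vehicle replicate 1 (log2 -0.12, adjusted p = 0.086) and without TKO vehicle replicate 1 (log2 -0.18, adjusted p = 0.061), and the Tm7sf2 call without TKO vehicle replicate 1 (log2 -0.34, adjusted p = 0.0615). With libraries scaled by their totals neither Cyp51 (log2 -0.06, adjusted p = 0.436) nor Tm7sf2 (log2 -0.22, adjusted p = 0.115) was called, and DESeq2 did not call Tm7sf2 (adjusted p = 0.0826). Msmo1, the methyl oxidase, and Nsdhl, its partner dehydrogenase, were not called (log2 fold changes 0.07 and 0.02).

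The control genes split. Insig2, which retains Scap in the endoplasmic reticulum, had 15.9 and 15.9 CPM in TKO and 30.5 and 31.5 CPM in wild-type cells (log2 fold change -0.96, SE 0.08, adjusted p = 5.21e-11, 1.95-fold lower), and it too lies on chromosome 1. Its relative Insig1, itself an SREBP target, had 45.6 and 45.3 CPM in TKO and 37.3 and 32.6 CPM in wild-type cells and rose (log2 fold change 0.38, SE 0.06, adjusted p = 1.01e-05). Scap rose by 0.28 log2 units (SE 0.06), and overlaps 5830462I19Rik on the other strand over 13.2% of its exons. Srebf1 rose by 0.12 log2 units (SE 0.05) at an adjusted p of 0.0494, which was not called without either wild-type vehicle library (replicate 1 log2 0.09, adjusted p = 0.181, replicate 2 log2 0.10, adjusted p = 0.167) and without either wild-type inhibitor library, TKO vehicle replicate 2 or either TKO inhibitor library (adjusted p 0.0539 to 0.315). Nor was it called by DESeq2 (adjusted p = 0.146) or with no filter on low counts (adjusted p = 0.26). Srebf2 was not called (log2 fold change -0.06), though it was called without wild-type vehicle replicate 1 (log2 -0.16, adjusted p = 0.00476). Stard4, which carries sterol between membranes, was not called either (log2 fold change 0.01).

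In fatty acid synthesis 3 of 5 genes fell and 1 rose in TKO vehicle cells (60% and 20%, against 34.2% and 34.8% of all genes). Elovl6, which lengthens palmitate, had 121 and 126 CPM in TKO and 265 and 273 CPM in wild-type cells (log2 fold change -1.13, SE 0.05, adjusted p = 1.05e-16, 2.18-fold lower). Scd2 had 183 and 175 CPM in TKO and 206 and 199.6 CPM in wild-type cells (log2 fold change -0.18, SE 0.05, adjusted p = 0.00141), a small fall that was no longer called with libraries scaled by their totals. Fasn had 557 and 569 CPM in TKO and 604 and 636 CPM in wild-type cells (log2 fold change -0.14, SE 0.05, adjusted p = 0.0103). The Fasn call was lost without TKO vehicle replicate 1 (log2 -0.12, adjusted p = 0.0906), and the direction turned with libraries scaled by their totals (log2 0.01, adjusted p = 0.837). Acaca, the acetyl-CoA carboxylase, had 142 and 146 CPM in TKO and 126 and 119.7 CPM in wild-type cells and rose (log2 fold change 0.23, SE 0.05, adjusted p = 0.000545), while Acly was not called (log2 fold change 0.07).

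**Figure D1:**
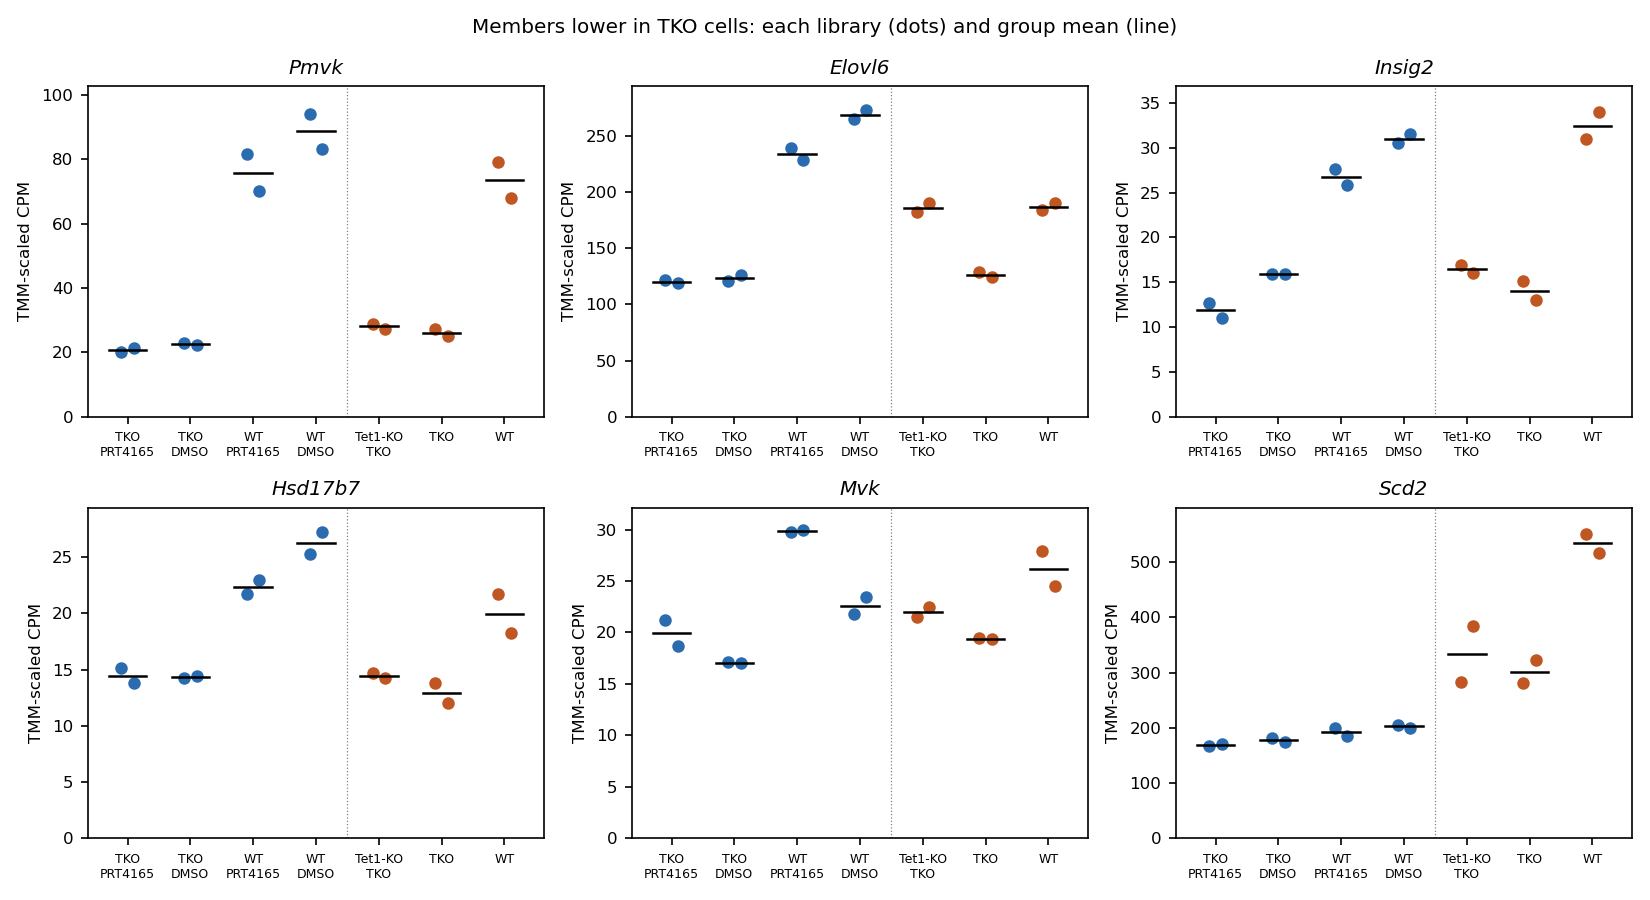
TMM-scaled CPM of 6 genes that were lower in TKO than in wild-type cells in both experiments, with each library as a dot and each group mean as a line. Experiment 1 stands left of the dotted line and experiment 2 right of it. For Pmvk every library without the methyltransferases lies at 28.8 CPM or lower and every wild-type library between 67.9 and 94.1 CPM.

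Untreated TKO cells were compared with untreated wild-type cells in experiment 2, which shares no library with experiment 1. There 3 of the 28 genes rose and 10 fell, against 25.9% of all 16303 genes that rose and 24.3% that fell. The member shares were 10.7% and 35.7%, and the median was -0.04, against 0.00 over all genes. None of the 17 sterol steps rose by edgeR or DESeq2 (1 had an unadjusted p under 0.05), and 6 fell. The count that rose rested on single libraries: it was 0 without wild-type replicate 2 or TKO replicate 2, 1 without TKO replicate 1, 2 without either Tet1-KO TKO library and 5 without wild-type replicate 1.

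Across the experiments 9 genes fell in both, 2 rose in both, 2 were called in opposite directions, 6 were called in vehicle only and 9 in neither. How many of all genes were called alike in both experiments was not counted, so these counts lack a background. Taken singly, 34.2% of all genes fell in vehicle and 24.3% untreated, while 34.8% and 25.9% rose. Whether the members share more calls than other genes was therefore not tested. The genes that fell in both were Pmvk, Mvk, Tm7sf2, Hsd17b7, Ebp, Sc5d, Insig2, Elovl6 and Scd2. In untreated cells Pmvk had 27.1 and 25.1 CPM in TKO and 78.999 and 67.9 CPM in wild type (log2 fold change -1.49, SE 0.11, adjusted p = 8.07e-07), and Insig2 15.1 and 13.01 CPM in TKO and 30.9 and 33.97 CPM in wild type (log2 fold change -1.20, SE 0.13, adjusted p = 1.24e-05). Both were well outside the spread of the libraries. Genes of chromosome 1, where Insig2 and Hsd17b7 lie, had a median 0.46 lower than other autosomes in this comparison too (difference -0.46). Tm7sf2 fell to 5.03 and 4.52 CPM in TKO, against 11.05 and 8.56 CPM in wild type (log2 fold change -1.04, SE 0.18, adjusted p = 0.000597), and Scd2 to 280.3 and 322 CPM in TKO, against 551 and 517 CPM in wild type (log2 fold change -0.83, SE 0.14, adjusted p = 0.000377). Both log2 differences were larger than in vehicle (-0.37 for Tm7sf2 and -0.18 for Scd2), while that of Elovl6 was smaller (-0.56 untreated and -1.13 in vehicle). Whether these sizes differ between experiments was not tested.

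Hsd17b7 (-0.63 log2 units (SE 0.14)) and Sc5d (-0.58 log2 units (SE 0.13)) kept their calls without any 1 library. Mvk fell by 0.44 log2 units (SE 0.12), a call lost without wild-type replicate 1 (log2 -0.35, adjusted p = 0.0548), TKO replicate 1 (log2 -0.44, adjusted p = 0.0645) or TKO replicate 2 (log2 -0.43, adjusted p = 0.0686). Ebp fell by 0.35 log2 units (SE 0.13) and lost its call without any of the 4 libraries compared, at log2 -0.35, adjusted p = 0.0815 and log2 -0.37, adjusted p = 0.0641 without wild-type replicates 1 and 2, and at log2 -0.34, adjusted p = 0.177 and log2 -0.37, adjusted p = 0.141 without TKO replicates 1 and 2. Acaca rose in both experiments (0.41 log2 units (SE 0.11) untreated), and its untreated call was lost without wild-type replicate 2 (log2 0.30, adjusted p = 0.0504) or TKO replicate 2 (log2 0.39, adjusted p = 0.0698). Scap rose by 0.29 log2 units (SE 0.11), a call lost without wild-type replicate 2 (log2 0.16, adjusted p = 0.255) and without either TKO or either Tet1-KO TKO library (adjusted p 0.0558 to 0.222). DESeq2 called neither Ebp (adjusted p = 0.0795) nor Scap (adjusted p = 0.0648). Ebp was also lost with no filter on low counts (adjusted p = 0.0965) and with libraries scaled by their totals (adjusted p = 0.0872), and Scap with the compared groups alone (adjusted p = 0.0501).

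Fasn and Srebf1 were called in opposite directions. Fasn had 557 and 564 CPM in TKO and 477 and 337 CPM in wild-type untreated cells (log2 fold change 0.46, SE 0.15, adjusted p = 0.021), where it had fallen in vehicle. Its wild-type libraries lay far apart, and the call was lost without wild-type replicate 2 (log2 0.23, adjusted p = 0.111), TKO replicate 1 (log2 0.47, adjusted p = 0.0672) or TKO replicate 2 (log2 0.46, adjusted p = 0.0711). That wild-type library also held 6.94% mitochondrial counts, against 4.25% in replicate 1, and the part of this in the result was not tested. Srebf1 had 66.1 and 76.9 CPM in TKO and 87.2 and 88.02 CPM in wild-type untreated cells (log2 fold change -0.29, SE 0.10, adjusted p = 0.0323), a fall lost without wild-type replicate 2 (log2 -0.29, adjusted p = 0.0549) or TKO replicate 1 (log2 -0.19, adjusted p = 0.338), with libraries scaled by their totals (adjusted p = 0.0864) or with no filter on low counts (adjusted p = 0.0598).

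**Figure D2:**
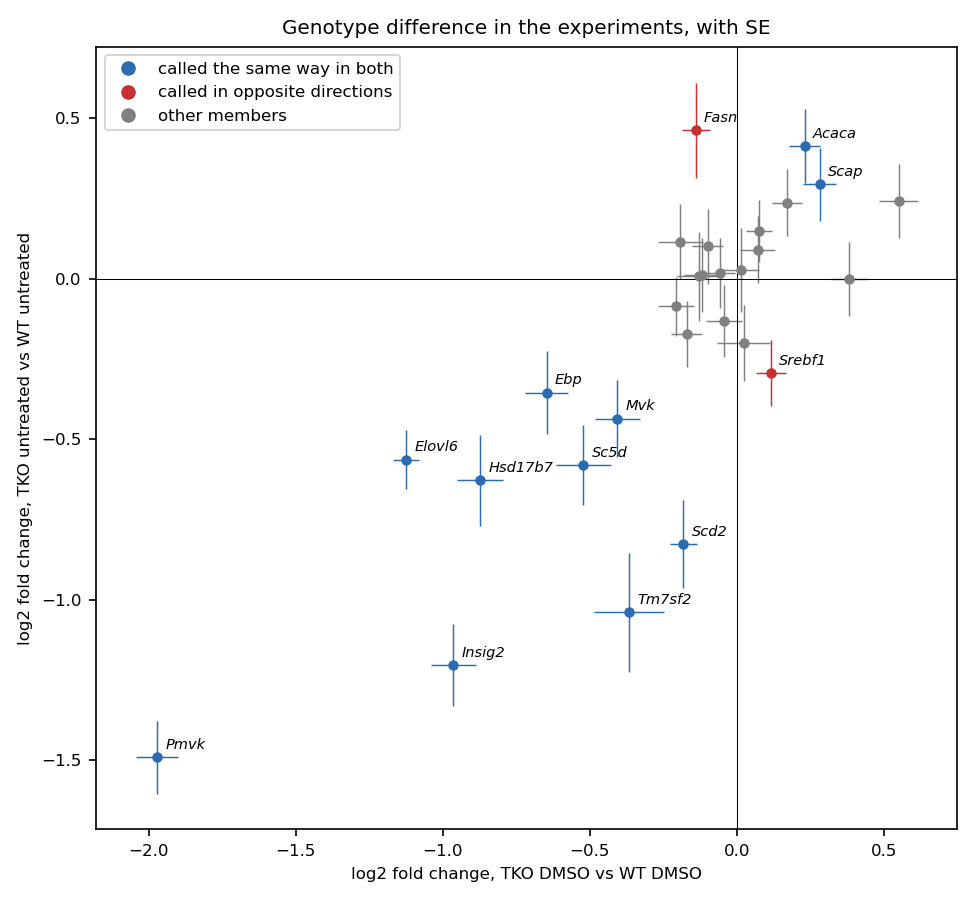
Log2 fold change of TKO over wild-type cells in vehicle (horizontal) against that in untreated cells (vertical) for the 28 genes, with bars of 1 SE. Genes called the same way in both are blue, with Pmvk at the lower left, and the 2 called in opposite directions are red.

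The inhibitor comparisons asked how PRT4165 changed these genes in each genotype. In wild-type cells 8 of 28 rose and 8 fell, and in TKO cells 5 rose and 5 fell. Over all genes 19.0% rose and 18.7% fell in wild-type cells, and 19.9% rose and 19.6% fell in TKO cells, so the member counts were 28.6% each way in wild-type and 17.9% each way in TKO cells. The members' medians were -0.01 in wild-type and -0.03 in TKO cells, against 0.01 and 0.00 over all genes, and the changes were small: the 28 log2 fold changes lay between -0.33 and 0.40 in wild-type cells and between -0.42 and 0.54 in TKO cells. DESeq2 called 5 risen in wild-type and 2 in TKO cells. Over all genes it called 2197 and 2162 risen, against 3171 and 3324 by edgeR. Without wild-type inhibitor replicate 2, 3 genes fell and 7 rose in wild-type cells, and without wild-type inhibitor replicate 1, 5 rose and 7 fell. Without wild-type vehicle replicate 1, 5 fell. In TKO cells 2 rose without vehicle replicate 1, vehicle replicate 2 or inhibitor replicate 1, 3 rose without inhibitor replicate 2, and 3 fell without vehicle replicate 2 or inhibitor replicate 1. Beside these changes, 8 trophoblast markers summed to 1213 to 1218 CPM with inhibitor and 865 to 899 CPM in vehicle in TKO cells, and to 134 to 139 against 83.9 to 94.2 CPM in wild-type cells, and 6 of them rose in TKO and 5 in wild-type cells. The 8 pluripotency markers summed to 3231 to 3404 CPM with inhibitor and 4328 CPM in both vehicle libraries in TKO cells, and to 4833 to 5040.4 against 5679 to 5816 CPM in wild-type cells, and 5 of them fell in TKO and 6 in wild-type cells. Their part in the members' values was not tested.

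Fasn rose with the inhibitor in both genotypes. It had 649 and 649 CPM in inhibitor-treated and 557 and 569 CPM in vehicle-treated TKO cells (log2 fold change 0.21, SE 0.05, adjusted p = 0.00112), and 791 and 731 CPM in inhibitor-treated and 604 and 636 CPM in vehicle-treated wild-type cells (log2 fold change 0.30, SE 0.05, adjusted p = 2.17e-05). In neither genotype did the libraries of the treatments overlap. Mvk rose in wild-type cells, with 29.7 and 29.97 CPM with inhibitor and 21.8 and 23.4 CPM in vehicle (log2 fold change 0.40, SE 0.07, adjusted p = 0.000121). In TKO cells it had 21.3 and 18.7 CPM with inhibitor and 17.1 and 17.04 CPM in vehicle (log2 fold change 0.23, SE 0.08, adjusted p = 0.0212), a call lost without TKO vehicle replicate 1 (log2 0.22, adjusted p = 0.122), vehicle replicate 2 (log2 0.21, adjusted p = 0.137) or inhibitor replicate 1 (log2 0.11, adjusted p = 0.388). Fdft1, which overlaps Ctsb on the opposite strand, rose in wild-type cells by 0.28 log2 units (SE 0.06), and the SREBP genes Srebf1 and Srebf2 rose there by 0.27 log2 units (SE 0.05) and 0.22 log2 units (SE 0.05). The rises of these 5 genes in wild-type cells were kept without any 1 library and under every other setting tried.

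Idi1 and Acat2 fell in both genotypes. Idi1 had 21.2 and 19.9 CPM with inhibitor and 25.99 and 25.8 CPM in vehicle in TKO cells (log2 fold change -0.33, SE 0.08, adjusted p = 0.00152), and 24.1 and 20.8 against 30.2 and 26.5 CPM in wild-type cells (log2 fold change -0.32, SE 0.08, adjusted p = 0.00204). The wild-type libraries do not overlap but lie close, and that call was lost without vehicle replicate 1 (log2 -0.22, adjusted p = 0.0538) or inhibitor replicate 2 (log2 -0.22, adjusted p = 0.0707). Acat2 fell by 0.30 log2 units (SE 0.05) in TKO and fell by 0.17 log2 units (SE 0.05) in wild-type cells, the second call being lost without vehicle replicate 1 (log2 -0.14, adjusted p = 0.0655) or inhibitor replicate 2 (log2 -0.13, adjusted p = 0.145). Insig2 had 12.7 and 11.1 CPM with inhibitor and 15.9 and 15.9 CPM in vehicle in TKO cells (log2 fold change -0.42, SE 0.08, adjusted p = 0.000347), the lowest of the 28 values there. In wild-type cells it had 27.7 and 25.8 against 30.5 and 31.5 CPM (log2 fold change -0.21, SE 0.07, adjusted p = 0.0231), a call lost without vehicle replicate 2 (log2 -0.18, adjusted p = 0.12) or inhibitor replicate 2 (log2 -0.15, adjusted p = 0.203).

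Stard4 fell in wild-type cells, with 32.5 and 30.8 CPM with inhibitor and 42.04 and 37.8 CPM in vehicle (log2 fold change -0.33, SE 0.06, adjusted p = 0.000209), and was not called in TKO cells (log2 fold change -0.04). Elovl6 fell by 0.20 log2 units (SE 0.04) in wild-type cells. Acaca, which shares 64.3% of its longest transcript with Gm5182, fell by 0.18 log2 units (SE 0.05) in TKO cells and fell by 0.23 log2 units (SE 0.05) in wild-type cells. The Acaca call was lost in TKO cells without vehicle replicate 2 (log2 -0.17, adjusted p = 0.0566) or inhibitor replicate 1 (log2 -0.13, adjusted p = 0.105), and in wild-type cells without inhibitor replicate 2 (log2 -0.15, adjusted p = 0.0732). Pmvk fell by 0.22 log2 units (SE 0.06) in wild-type cells, a call lost without vehicle replicate 1 (log2 -0.12, adjusted p = 0.185) or inhibitor replicate 2 (log2 -0.11, adjusted p = 0.272). Hsd17b7 fell by 0.24 log2 units (SE 0.08) there, a call lost without vehicle replicate 2 (log2 -0.18, adjusted p = 0.14) or inhibitor replicate 1 (log2 -0.19, adjusted p = 0.149), and Fdps rose by 0.16 log2 units (SE 0.05), lost without the same libraries (log2 0.12, adjusted p = 0.108 and log2 0.16, adjusted p = 0.0645). Scap rose in wild-type cells by 0.15 log2 units (SE 0.06), a call lost without vehicle replicate 2 (log2 0.15, adjusted p = 0.0705), inhibitor replicate 1 (log2 0.11, adjusted p = 0.255) or any 1 TKO library (adjusted p 0.0508 to 0.0534). In TKO cells Fdft1 rose by 0.16 log2 units (SE 0.06), Srebf1 rose by 0.15 log2 units (SE 0.05) and Nsdhl fell by 0.24 log2 units (SE 0.09), and each of these calls was lost without any 1 of the 4 TKO libraries (adjusted p 0.0572 to 0.317). DESeq2 also did not call Mvk (adjusted p = 0.124), Fdft1 (0.142), Srebf1 (0.0971) or Nsdhl (0.16) in TKO cells, nor Insig2 (0.117), Hsd17b7 (0.0848), Fdps (0.0575) or Scap (0.155) in wild-type cells, each value being an adjusted p. With no filter on low counts Srebf1 in TKO cells (adjusted p = 0.0752) and Scap in wild-type cells (adjusted p = 0.0955) were lost, as were Fdft1 in TKO cells with libraries scaled by their totals (adjusted p = 0.0577) and Scap in wild-type cells with the compared groups alone (adjusted p = 0.0506).

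Msmo1 was the single gene of the 28 whose response to the inhibitor differed between the genotypes by the interaction test, where 1.77% of all genes were called higher and 2.12% lower in TKO. It had 64.97 and 60.3 CPM with inhibitor and 44.9 and 41.5 CPM in vehicle in TKO cells (log2 fold change 0.54, SE 0.06, adjusted p = 7.01e-08), and 46.2 and 45.8 against 39.97 and 42.3 CPM in wild-type cells (log2 fold change 0.16, SE 0.06, adjusted p = 0.0357). The rise was thus larger in TKO cells (interaction log2 fold change 0.38, SE 0.08, adjusted p = 0.00913). The interaction call was lost without TKO vehicle replicate 2 (log2 0.31, adjusted p = 0.107) or TKO inhibitor replicate 1 (log2 0.31, adjusted p = 0.0883), and the rise in wild-type cells was lost without wild-type vehicle replicate 1 (log2 0.13, adjusted p = 0.137) and without either wild-type inhibitor or either TKO vehicle library (adjusted p 0.0552 to 0.122). That rise in wild-type cells was not called by DESeq2 (adjusted p = 0.162) or with no filter on low counts (adjusted p = 0.0893). None of the 28 had a lower interaction by edgeR or DESeq2 at the threshold, while at an unadjusted p under 0.05 there were 4 higher and 3 lower. Without wild-type vehicle replicate 2 the interaction was also called for Stard4 (log2 0.36, adjusted p = 0.0117) and Srebf2 (log2 -0.27, adjusted p = 0.00949). Msmo1 lies on chromosome 8, whose genes had a median 0.34 above other autosomes in TKO against wild-type vehicle cells, but 0.03 in the inhibitor comparison within TKO cells.

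Inhibitor-treated TKO cells were also set against wild-type vehicle cells, which serve as the control of the vehicle comparison too. Here 7 of 28 genes rose and 14 fell, against 39.6% and 36.7% of all genes, and the median was -0.12, against 0.03 over all genes. Of the 17 sterol steps 3 rose and 11 fell. Pmvk had 19.995 and 21.3 CPM in inhibitor-treated TKO and 94.1 and 83.1 CPM in wild-type vehicle cells (log2 fold change -2.10, SE 0.07, adjusted p = 3.52e-18), Insig2 12.7 and 11.1 against 30.5 and 31.5 CPM (log2 fold change -1.38, SE 0.08, adjusted p = 6.19e-14) and Elovl6 122 and 119 against 265 and 273 CPM (log2 fold change -1.16, SE 0.05, adjusted p = 4.34e-17). These were the 3 lowest log2 fold changes of the list here, as in vehicle. Msmo1 (0.61 log2 units (SE 0.06)) and Dhcr7 (0.64 log2 units (SE 0.06)) rose most. Genes of chromosome 1, where Insig2 lies, had a median 0.43 below the other autosomes here (difference -0.43). Those of chromosome 8, where Msmo1 lies, had a median 0.35 above. With libraries scaled by their totals, 12 of the 28 rose, beside 7703 of all 16711 genes. Sqle (log2 0.13, adjusted p = 0.0245) and Srebf2 (log2 0.12, adjusted p = 0.0292) were among the 12, and both were not called after TMM scaling.

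**Figure D3:**
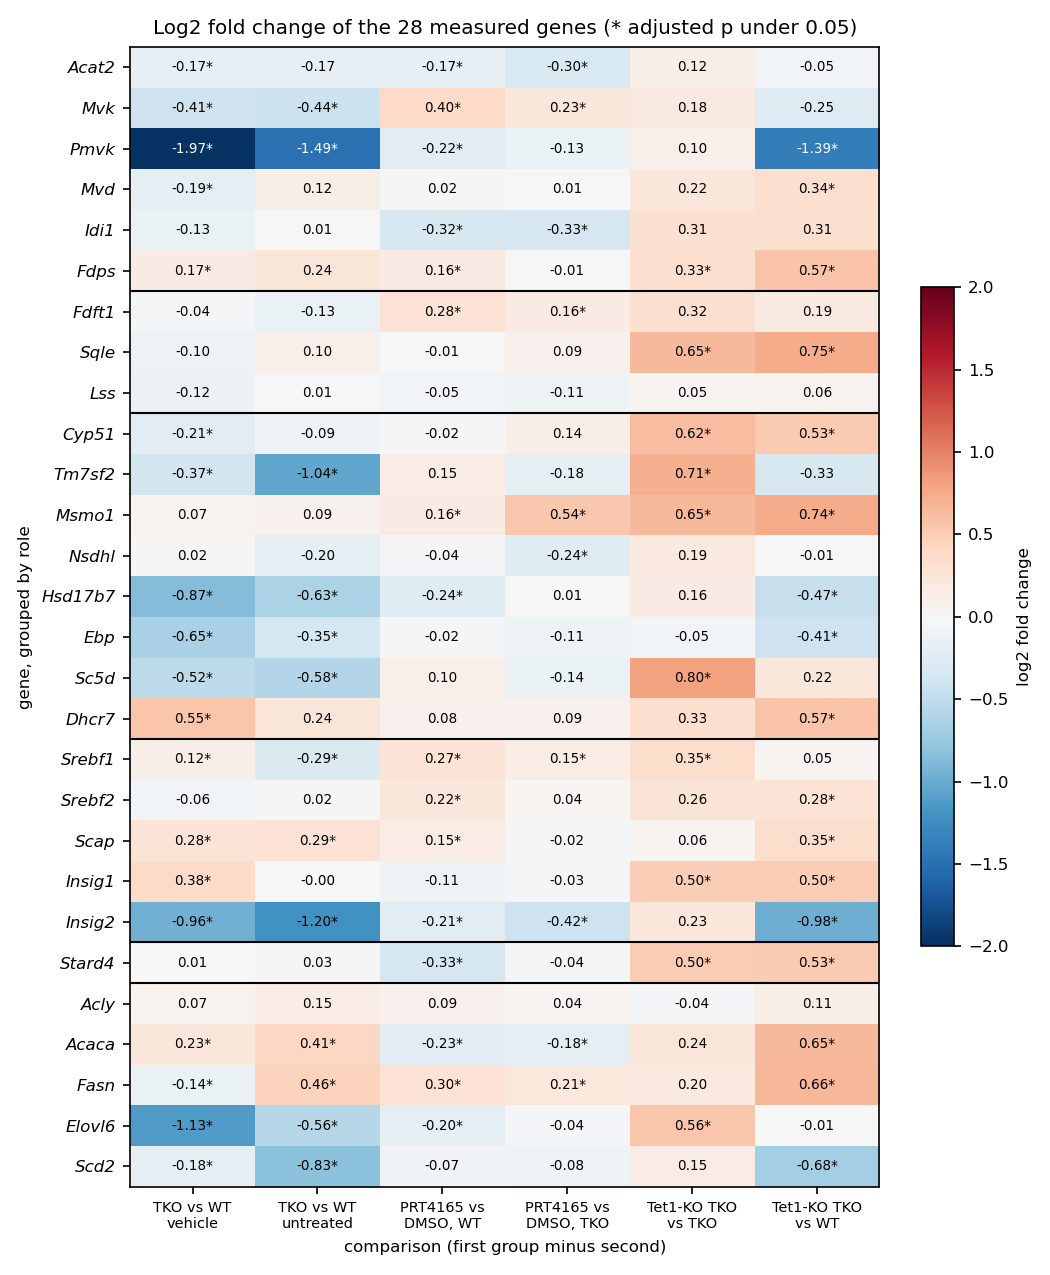
Log2 fold changes of the 28 measured genes (rows, grouped by role with lines between groups) in 6 comparisons (columns), coloured from blue (lower in the first-named group) to red (higher), with an asterisk at an adjusted p under 0.05. The Tet1-KO TKO against TKO column holds 10 asterisks, all on positive values.

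Loss of Tet1 was compared on the TKO background, in untreated cells. Of the 28 genes 10 rose and none fell, against 11.6% of all 16303 genes that rose and 10.4% that fell. The share that rose was 35.7%, the median log2 fold change was 0.25, against 0.00 over all genes, and 26 of 28 genes were above 0. DESeq2 also called 10 risen and none fallen, and at an unadjusted p under 0.05 there were 14 higher and none lower. The count of risen members was lower without any 1 TKO or Tet1-KO TKO library and higher without either wild-type library. Over all genes the count that rose moved the same way. With any 1 library left out, the median of the 28 genes stayed between 0.23 and 0.32. With libraries scaled by their totals the share of all calls that rose was 40.6%, against 52.9% after TMM scaling, and the median of the 28 genes was 0.18.

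Sqle had 123 and 120.2 CPM in Tet1-KO TKO and 84.6 and 71.02 CPM in TKO cells (log2 fold change 0.65, SE 0.12, adjusted p = 0.00245). Cyp51 had 97.1 and 102 CPM in Tet1-KO TKO and 64.4 and 65.3 CPM in TKO cells (log2 fold change 0.62, SE 0.09, adjusted p = 0.000767), Msmo1 109.9 and 112 against 76.2 and 64.5 CPM (log2 fold change 0.65, SE 0.10, adjusted p = 0.00119) and Sc5d 22.1 and 22.9 against 13.2 and 12.5 CPM (log2 fold change 0.80, SE 0.12, adjusted p = 0.000983). For each of these 4 enzymes both Tet1-KO TKO libraries stood above both TKO libraries, and the call was kept without any 1 library and under every other setting tried. Tm7sf2, which overlaps Vps51 over 12.1% of its exons, had 7.19 and 8.47 CPM in Tet1-KO TKO and 5.03 and 4.52 CPM in TKO cells (log2 fold change 0.71, SE 0.18, adjusted p = 0.0164). Its call was lost without TKO replicate 1 (log2 0.80, adjusted p = 0.0589), TKO replicate 2 (log2 0.64, adjusted p = 0.116) or Tet1-KO TKO replicate 2 (log2 0.59, adjusted p = 0.0922). Of the 6 mevalonate genes 1 rose, Fdps, with 121 and 117 CPM in Tet1-KO TKO and 95.1 and 93.4 CPM in TKO cells (log2 fold change 0.33, SE 0.10, adjusted p = 0.0375), a call lost without any of the 4 libraries compared (adjusted p 0.0967 to 0.221) and with libraries scaled by their totals (adjusted p = 0.115). Fdft1 (log2 fold change 0.32, adjusted p = 0.0625), Dhcr7 (0.33, adjusted p = 0.0557) and Idi1 (0.31, adjusted p = 0.134) had positive log2 fold changes that did not pass the threshold. Idi1 was called without TKO replicate 1 (log2 0.55, adjusted p = 0.042), and without either wild-type library Fdft1 (adjusted p 0.0173 and 0.0178) and Dhcr7 (adjusted p 0.0246 and 0.0257) were called. With the replicate number as a block both were called too (Fdft1 adjusted p = 0.0284, Dhcr7 adjusted p = 0.0315), and 12 of the 28 genes rose. Ebp and Lss lay near 0 (log2 fold changes -0.05 and 0.05).

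**Figure D4:**
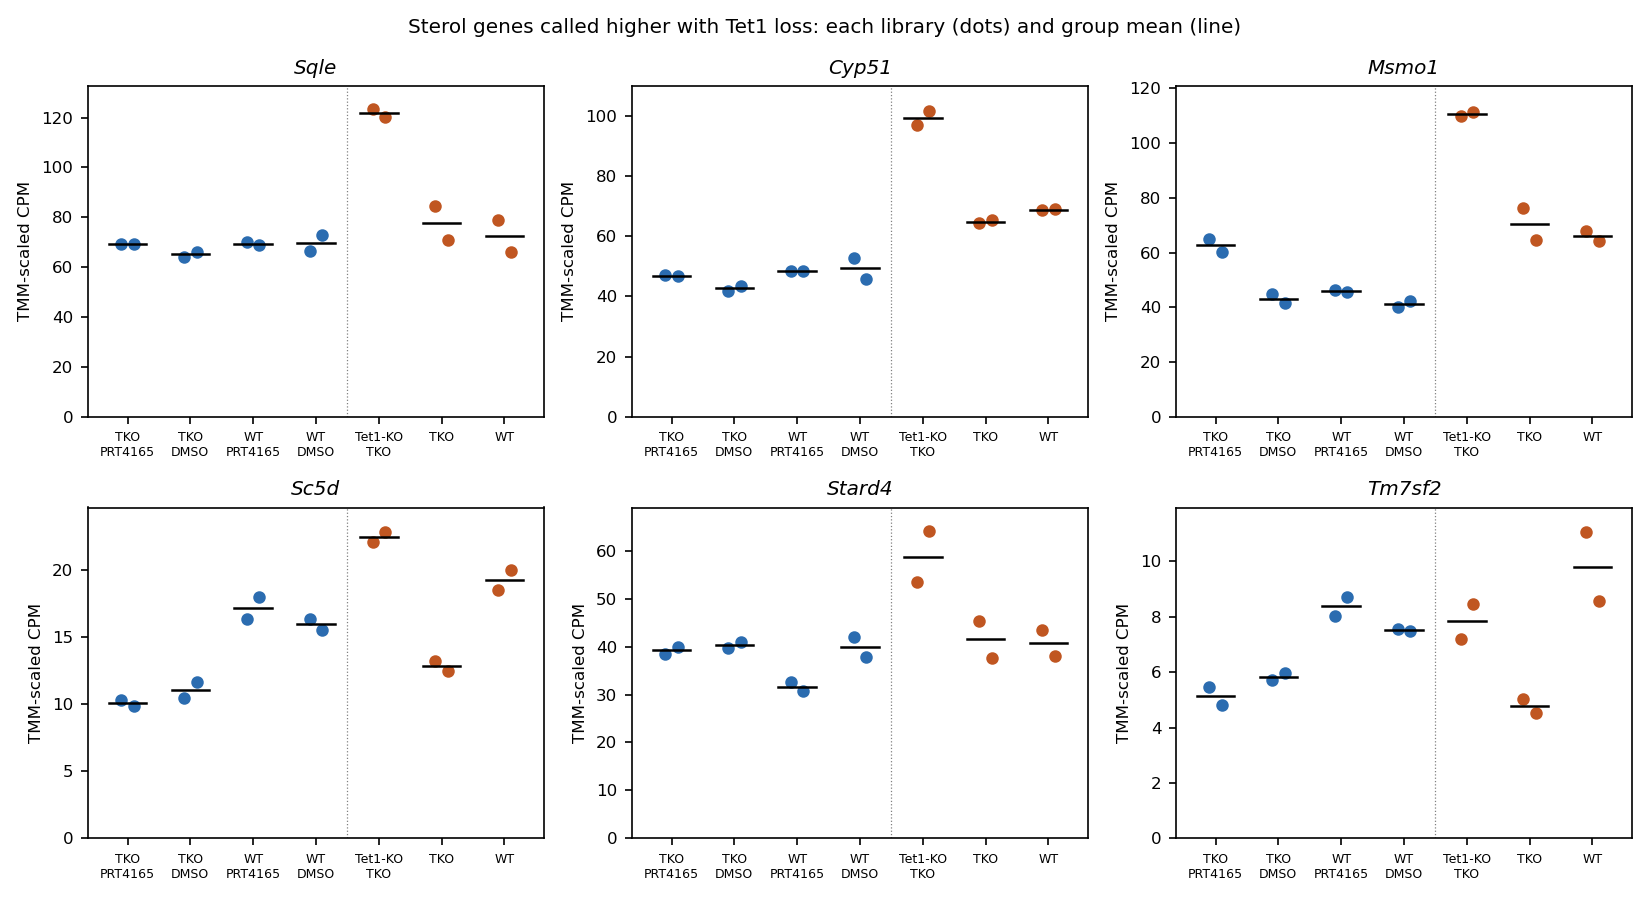
TMM-scaled CPM of 6 sterol genes called higher in Tet1-KO TKO than in TKO cells, with each library as a dot and each group mean as a line. Experiment 1 stands left of the dotted line and experiment 2 right of it. For Sqle the Tet1-KO TKO libraries reach 120.2 and 123 CPM, and no other library of experiment 2 exceeds 84.6 CPM.

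The promoters of the members were read from RefSeq windows of 250 bases before to 50 bases after a start (GRCm38.p6). Of the 29 genes 24 had 32 windows, and Sqle, Fdft1, Fdps, Scd2 and Stard4 had none. One form of the sterol regulatory element, TCACNCCAC, was searched on both strands. It was in 1 of the 32 windows, that of Hmgcs1, and in 1.24% of all 32851 windows. Other forms of the element were not searched, so a window without this match may still hold one. CCAAT, the box bound by NF-Y, was in 21 of 32 windows (65.6%), against 37.4% of all windows, and GGGCGG, the box bound by Sp1, in 24 of 32 (75%), against 35.7%, also on both strands. No CCAAT and GGGCGG match shared a base in a member window. The member windows held a median of 19.5 CpG dinucleotides, against 7.0 over all windows. A match is only a run of letters, and nothing on binding was measured.

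The 150 bases before the start are shown for the 4 genes with the largest called rise on Tet1 loss that have an entry in that table, chosen after their values were seen, 5′ to 3′ on the gene's strand, with CCAAT and GGGCGG matches on either strand in capitals. Sc5d lies at chr9:42264301-42264450 (minus strand), Tm7sf2 at chr19:6067851-6068000 (minus), Msmo1 at chr8:64733579-64733728 (minus) and Cyp51 at chr5:4104698-4104847 (minus).
Sc5d: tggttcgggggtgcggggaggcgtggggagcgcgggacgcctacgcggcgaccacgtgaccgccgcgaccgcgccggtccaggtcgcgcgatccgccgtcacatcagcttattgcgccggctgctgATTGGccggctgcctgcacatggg
Tm7sf2: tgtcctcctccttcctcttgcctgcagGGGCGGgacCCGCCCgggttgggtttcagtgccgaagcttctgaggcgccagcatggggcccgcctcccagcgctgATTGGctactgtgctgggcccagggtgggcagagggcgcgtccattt
Msmo1: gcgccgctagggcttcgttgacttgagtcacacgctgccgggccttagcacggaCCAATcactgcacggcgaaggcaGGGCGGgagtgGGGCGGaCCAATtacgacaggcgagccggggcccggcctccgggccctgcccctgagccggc
Cyp51: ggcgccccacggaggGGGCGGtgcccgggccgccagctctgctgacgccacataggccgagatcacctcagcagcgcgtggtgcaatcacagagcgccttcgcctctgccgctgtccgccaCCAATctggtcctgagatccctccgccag
Each stretch holds 1 CCAAT match except that of Msmo1, which holds 2. Whether the matches go with changes in level was not tested. GGGCGG matches number 2 in Msmo1, 2 in Tm7sf2, 1 in Cyp51 and 0 in Sc5d, whose window does hold GGGCGG outside the 150 bases shown.

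Among the control genes Insig1 and Srebf1 rose with Tet1 loss. Insig1 had 94.9 and 119 CPM in Tet1-KO TKO and 76.04 and 75.2 CPM in TKO cells (log2 fold change 0.50, SE 0.11, adjusted p = 0.009). That call was lost without TKO replicate 1 (log2 0.51, adjusted p = 0.0626), TKO replicate 2 (log2 0.49, adjusted p = 0.068) or Tet1-KO TKO replicate 2 (log2 0.33, adjusted p = 0.0954). Srebf1 had 87.4 and 94.4 CPM in Tet1-KO TKO and 66.1 and 76.9 CPM in TKO cells (log2 fold change 0.35, SE 0.10, adjusted p = 0.0309), and was not called without any of the 4 libraries compared (adjusted p 0.0596 to 0.329) or with libraries scaled by their totals (adjusted p = 0.0842). Stard4 had 53.5 and 64.1 CPM in Tet1-KO TKO and 45.4 and 37.6 CPM in TKO cells (log2 fold change 0.50, SE 0.13, adjusted p = 0.0168), a call lost without TKO replicate 2 (log2 0.37, adjusted p = 0.179) or Tet1-KO TKO replicate 2 (log2 0.37, adjusted p = 0.124). Insig2, Scap and Srebf2 were not called (log2 fold changes 0.23, 0.06 and 0.26), though Srebf2 was called without either wild-type library (adjusted p 0.0233 and 0.0237).

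In fatty acid synthesis Elovl6 alone of 5 genes rose, with 182 and 189.8 CPM in Tet1-KO TKO and 128 and 125 CPM in TKO cells (log2 fold change 0.56, SE 0.09, adjusted p = 0.00147), a call kept under every setting tried. It shares 13.5% of its longest transcript with the counted gene Gm11295. Acaca, Fasn, Scd2 and Acly had log2 fold changes between -0.04 and 0.24 and were not called. The Tet1-KO TKO libraries of Scd2 were far apart, at 283 and 385 CPM, against 280.3 and 322 CPM in TKO cells, and overlapped them. Trophoblast and endoderm marker sums were also higher in Tet1-KO TKO than in TKO cells, by the values given above. Of those lists 7 of 8 and 6 of 6 tested genes rose by edgeR, against 11.6% of all genes. DESeq2 called 6 trophoblast and 2 endoderm genes higher. The members rose beside these markers, whose part in the result was not tested.

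**Figure D5:**
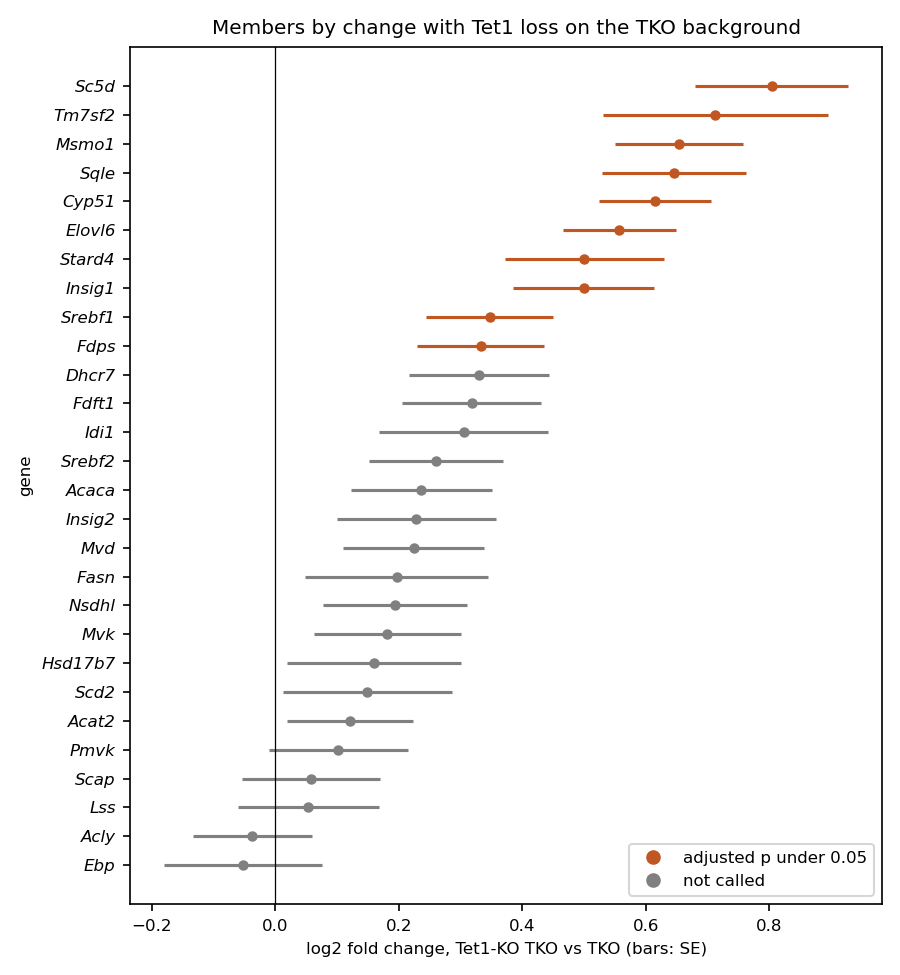
Log2 fold change of Tet1-KO TKO over TKO cells for the 28 genes, ordered by size, with bars of 1 SE. The 10 called genes run from Fdps at 0.33 to Sc5d at 0.80, and only Acly and Ebp lie below 0.

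Set against wild type, Tet1-KO TKO cells had 12 of 28 genes higher and 5 lower, against 26.3% and 24.4% of all genes, with a median of 0.21, against 0.00 over all genes. This comparison shares its libraries with the other untreated ones. Msmo1 and Mvd lie on chromosome 8, whose genes had a median 0.32 above the other autosomes here. Sqle had 123 and 120.2 CPM in Tet1-KO TKO and 78.9 and 66.05 CPM in wild-type cells (log2 fold change 0.75, SE 0.12, adjusted p = 0.000214), and Msmo1 109.9 and 112 against 67.7 and 64.4 CPM (log2 fold change 0.74, SE 0.10, adjusted p = 9.18e-05). Fdps (0.57 log2 units (SE 0.10)), Cyp51 (0.53 log2 units (SE 0.09)), Dhcr7 (0.57 log2 units (SE 0.11)), Insig1 (0.50 log2 units (SE 0.11)), Acaca (0.65 log2 units (SE 0.11)) and Fasn (0.66 log2 units (SE 0.15)) also rose and kept the call without any 1 library. Mvd rose by 0.34 log2 units (SE 0.12), lost without wild-type replicate 2 (log2 0.23, adjusted p = 0.145) or either Tet1-KO TKO library (log2 0.36, adjusted p = 0.064 and log2 0.32, adjusted p = 0.0942). Scap rose by 0.35 log2 units (SE 0.11), lost without wild-type replicate 2 (log2 0.22, adjusted p = 0.117) or Tet1-KO TKO replicate 1 (log2 0.32, adjusted p = 0.0934), and Stard4 by 0.53 log2 units (SE 0.13), lost without Tet1-KO TKO replicate 2 (log2 0.39, adjusted p = 0.0516). Srebf2 rose by 0.28 log2 units (SE 0.11) at an adjusted p of 0.0495, lost without wild-type replicate 2 (log2 0.15, adjusted p = 0.205) and without either TKO or either Tet1-KO TKO library (adjusted p 0.0723 to 0.211). It was also lost with libraries scaled by their totals (adjusted p = 0.0792) and with the compared groups alone (adjusted p = 0.0857).

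The genes that were low in TKO cells did not all move together when Tet1 was also lost. Pmvk had 28.8 and 27.3 CPM in Tet1-KO TKO, 27.1 and 25.1 CPM in TKO and 78.999 and 67.9 CPM in wild-type cells, so both knockout genotypes were far below wild type (log2 fold change of Tet1-KO TKO over wild type -1.39, adjusted p = 9.79e-07). Insig2 (-0.98 log2 units (SE 0.13)) and Scd2 (-0.68 log2 units (SE 0.14)) were likewise below wild type in Tet1-KO TKO cells. Genes of chromosome 1, where Insig2 and Hsd17b7 lie, had a median 0.43 below the other autosomes in this comparison (difference -0.43). Those of the X chromosome, where Ebp lies, had a median 0.38 above the autosomes. The part of these shifts in the single genes was not tested. Hsd17b7 (-0.47 log2 units (SE 0.14)) and Ebp (-0.41 log2 units (SE 0.13)) fell against wild type too, but Hsd17b7 lost its call without wild-type replicate 1 (log2 -0.34, adjusted p = 0.0977) or Tet1-KO TKO replicate 2 (log2 -0.44, adjusted p = 0.0652), as did Ebp (log2 -0.40, adjusted p = 0.0513 and log2 -0.34, adjusted p = 0.111), and without either of these libraries 3 genes fell. Elovl6 had 182 and 189.8 CPM in Tet1-KO TKO, 128 and 125 CPM in TKO and 184 and 189.8 CPM in wild-type cells, with Tet1-KO TKO and wild-type libraries overlapping (log2 fold change -0.01, SE 0.09, adjusted p = 0.964). Sc5d had 22.1 and 22.9 CPM in Tet1-KO TKO, 13.2 and 12.5 CPM in TKO and 18.5 and 20.03 CPM in wild-type cells, and did not differ from wild type at the threshold in Tet1-KO TKO cells (log2 fold change 0.22, SE 0.12, adjusted p = 0.149). Both contrasts with TKO cells share the TKO libraries, and no test joins them.

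Other genes of the pathways, 43 in 5 lists chosen by function, were counted beside the members. In vehicle 16 rose and 16 fell in TKO cells, 37.2% each way, against 34.8% and 34.2% of all genes. Untreated 13 rose and 9 fell in TKO cells (30.2% and 20.9%), against 25.9% and 24.3% of all genes. The inhibitor raised 9 and lowered 12 in TKO cells (20.9% and 27.9%, against 19.9% and 19.6% of all genes) and raised 8 and lowered 9 in wild-type cells (18.6% and 20.9%, against 19.0% and 18.7%). With Tet1 loss on the TKO background 5 rose and 4 fell (11.6% and 9.3%), near the 11.6% and 10.4% of all genes. Against wild type 18 rose and 11 fell in Tet1-KO TKO cells (41.9% and 25.6%, against 26.3% and 24.4% of all genes), and 18 rose and 15 fell in inhibitor-treated TKO against wild-type vehicle cells (41.9% and 34.9%, against 39.6% and 36.7%). In the interaction 1 was higher, Abca1, and none lower by edgeR or DESeq2 (4 higher and 2 lower at an unadjusted p under 0.05).

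Abca1, the exporter of cholesterol that the sterol-sensing LXR receptors switch on, had the lowest log2 fold change of these in vehicle. It had 9.73 and 10.1 CPM in TKO and 115 and 106 CPM in wild-type vehicle cells (log2 fold change -3.47, SE 0.08, adjusted p = 7.23e-22), and 7.56 and 9.3 CPM in TKO and 74.6 and 90.6 CPM in wild-type untreated cells (log2 fold change -3.29, SE 0.14, adjusted p = 1.15e-08). The inhibitor raised it in TKO cells (log2 fold change 0.75, SE 0.09, adjusted p = 5.93e-07) and the interaction was called (log2 fold change 0.63, SE 0.11, adjusted p = 0.000909). In all, the 9 genes of LXR and sterol export as a list had 3 risen and 3 fallen in vehicle (33.3% each way, against 34.8% and 34.2% of all genes). Among the 14 other fatty acid genes 7 rose and 4 fell in TKO vehicle cells (50% and 28.6%), with Slc25a1, the mitochondrial citrate exporter, at 86.98 and 89.9 CPM in TKO and 36.5 and 36.3 CPM in wild-type cells (log2 fold change 1.28, SE 0.05, adjusted p = 2.74e-16). Of the 10 isoprenoid branch genes 3 rose and 5 fell there (30% and 50%), and among them Fnta, the shared subunit of protein prenyltransferases, rose by 1.09 log2 units (SE 0.05) and Coq2, of ubiquinone synthesis, fell by 1.34 log2 units (SE 0.07). Fnta lies on chromosome 8, whose median was higher in TKO cells.

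With Tet1 loss 4 of the 14 other fatty acid genes rose and 2 fell (28.6% and 14.3%, against 11.6% and 10.4% of all genes). Scd1, a desaturase of the same family as Scd2, had 77.99 and 100.1 CPM in Tet1-KO TKO, 32.3 and 38.2 CPM in TKO and 79.7 and 74.7 CPM in wild-type cells (log2 fold change 1.34, SE 0.13, adjusted p = 4.91e-05 against TKO), so like Elovl6 it was low in TKO cells and not in the Tet1-KO cells. Scd1 and Scd2 share 11.4% of the Scd2 transcript. Me1, the malic enzyme that supplies NADPH, had 72.7 and 83.2 CPM in Tet1-KO TKO and 44.8 and 51.8 CPM in TKO cells (log2 fold change 0.69, SE 0.11, adjusted p = 0.00128), and Acacb, the mitochondrial carboxylase, went down, with 11.8 and 12.6 against 22.1 and 19.5 CPM (log2 fold change -0.77, SE 0.14, adjusted p = 0.00239). Acss2, which makes acetyl-CoA from acetate, fell by 0.63 log2 units (SE 0.16), a call lost without TKO replicate 1 (log2 -0.54, adjusted p = 0.136) or Tet1-KO TKO replicate 1 (log2 -0.51, adjusted p = 0.0886). With the inhibitor, Dolk, the dolichol kinase, fell by 0.64 log2 units (SE 0.10) in TKO cells and fell by 0.95 log2 units (SE 0.10) in wild-type cells, and Rdh11, a retinol dehydrogenase reported to be an SREBP target, fell by 0.61 log2 units (SE 0.09) in TKO cells and fell by 0.70 log2 units (SE 0.09) in wild-type cells. Pdss2, of ubiquinone synthesis, and Tecr, of fatty acid elongation, rose in wild-type cells by 0.34 log2 units (SE 0.09) and 0.31 log2 units (SE 0.07), the Pdss2 call being lost without wild-type inhibitor replicate 2 (log2 0.24, adjusted p = 0.0918). Mylip, a ligase that degrades lipoprotein receptors, rose in inhibitor-treated TKO against wild-type vehicle cells by 1.40 log2 units (SE 0.18), at means of 5.64 and 2.10 CPM. In vehicle alone it was already called higher in TKO than in wild-type cells (log2 fold change 1.06). It was not called with the inhibitor within TKO (0.34) or wild-type cells (0.13). Of the 8 genes that process SREBP or turn over proteins of the sterol pathway, 4 fell with the inhibitor in each genotype (50%, against 19.6% of all genes in TKO and 18.7% in wild-type cells), while DESeq2 called 2 lower in TKO and 3 in wild-type cells. None of them rose by edgeR, by DESeq2 or at an unadjusted p under 0.05. Of all genes 19.9% rose by edgeR in TKO and 19.0% in wild-type cells.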

How the data were processed

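Poly(A) RNA of 14 libraries, 2 in each of 7 groups, was sequenced in 2 experiments that were fitted separately. The deposited values are raw counts of reads per Ensembl gene. The submitters' processing notes name the mm9 build, TopHat2 2.0.2 with Bowtie 0.12.8, and HTSeq 0.5.3p9. The annotation release and strand setting were not given in the sources used here, so reads of overlapping or antisense genes could not be told apart. Of 37991 identifiers, 32919 matched a symbol in GENCODE M21 (GRCm38), used here for names, chromosomes, exon lengths and transcript sequences.

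Genes with low counts were left out with filterByExpr (at least 10 counts in a library of median size, 15 in all). edgeR 4.0.16 (R 4.3.3) was run with TMM scaling and its quasi-likelihood test on 16711 genes in experiment 1 and 16303 in experiment 2, all groups of an experiment sharing 1 estimate of spread. Adjustment was by Benjamini-Hochberg over all genes, with a threshold of 0.05. Depths lay between 23354015 and 41844823 counts. The estimated spread between libraries, the biological coefficient of variation, came to 3.73% for experiment 1 and 10.5% for experiment 2. For genes with few counts, sampling noise adds to that spread. The labels do not tie replicates to separate cultures: the spread that p-values measure is that between these samples only, and it may be technical. All replicate pairs differed by more than sampling noise.

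The alternatives were DESeq2 1.42.0, its size factors in edgeR, library size alone, no filter on low counts, only the groups compared, the replicate number as a block, and each library left out in turn. All members were named, and from the lists of other pathway genes at most 2 called in each direction in a comparison, with the largest log2 fold change and libraries that do not overlap. Members and lists were chosen with earlier results of these data known. Near-identical transcripts were found with BLAST 2.17.0 at 95% identity.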

Additional observations from a re-analysis of the deposited data

Results flagged for a closer look

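Msmo1 stood out because its response to the inhibitor differed between TKO and wild-type cells by the interaction test (interaction 0.38 on the log2 scale, with a log2 fold change of 0.54 in TKO and 0.16 in wild-type cells). Fasn and Srebf1 stood out because TKO cells differed from wild-type cells in opposite directions in the 2 experiments. The log2 fold change of Fasn was -0.14 in vehicle and 0.46 untreated, and that of Srebf1 was 0.12 in vehicle and -0.29 untreated. The Msmo1 interaction call and the calls of Fasn and Srebf1 in both experiments were each lost under at least 1 alternative. The difference between experiments was not tested for Fasn or Srebf1, and experiment and vehicle cannot be told apart.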

How the results depend on the processing

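Of 107 calls on members over the 8 comparisons, 61 were kept under all alternatives and 46 were lost under at least 1. Scaling by library size alone turned the direction of Fasn in TKO against wild-type vehicle cells (0.0105, adjusted p = 0.837) and of Sqle (0.13, adjusted p = 0.0245) and Srebf2 (0.12, adjusted p = 0.0292) in inhibitor-treated TKO against wild-type vehicle cells. It also gave 7 falls and a median of 0.0271 for TKO against wild type in vehicle, where 4173 of all 16711 genes fell. For inhibitor-treated TKO against wild-type vehicle cells it gave 12 rises and a median of 0.0155, where 7703 of all 16711 genes rose. The median for Tet1 loss was 0.18. DESeq2 gave 5 rises with the inhibitor in wild-type and 2 in TKO cells, and it called fewer of all genes risen there than edgeR did. Leaving out 1 library gave, for TKO against wild type in vehicle, 4 to 6 rises, 10 to 16 falls and a median of -0.17 to -0.10. It gave 5 to 7 rises, 3 to 8 falls and -0.0203 to 0.0695 for the inhibitor in wild-type cells, and 2 to 6, 3 to 5 and -0.0770 to -0.0081 in TKO cells. For inhibitor-treated TKO against wild-type vehicle cells it gave 5 to 7, 11 to 15 and -0.18 to -0.08, and for the interaction 0 to 2, 0 to 1 and -0.12 to -0.02. Untreated, it gave 0 to 5, 7 to 10 and -0.13 to 0.02 for TKO against wild type, 5 to 13, 0 to 0 and 0.23 to 0.32 for Tet1 loss, and 9 to 13, 3 to 6 and 0.11 to 0.24 for Tet1-KO TKO against wild type. The number of all genes called also changed with the library left out. Where 1 library is left in a group it is assumed to vary like the others.

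With 2 replicate numbers in a group and correlations of same-numbered deviations of -0.03 to 0.04 in experiment 1 and 0.11 to 0.24 in experiment 2, no label ties same-numbered libraries, so the block is an alternative only. Counts of members called under the block stayed within 1.5 times those without it in every comparison. With the block Srebf1 lost its call for TKO against wild type in vehicle (adjusted p = 0.0567), Fdft1 (0.31, adjusted p = 0.0284) and Dhcr7 (0.33, adjusted p = 0.0315) gained one for Tet1 loss and Idi1 (0.32, adjusted p = 0.0461) for Tet1-KO TKO against wild type. Over all genes 2366 rose and 2132 fell with Tet1 loss under the block, against 1895 and 1689 without it.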
